A study of Mus musculus with 4 samples.

Results

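The miR-200 family was examined among the small RNAs held by the RNA-induced silencing complex (RISC) of mouse brain. Its 7 members here are mmu-miR-200a-3p, mmu-miR-200b-3p, mmu-miR-429-3p, mmu-miR-200c-3p, mmu-miR-141-3p, mmu-miR-200a-5p and mmu-miR-200b-5p, out of 1029 miRNA names that had reads. All 7 passed the minimum mean of 10 CPM (reads scaled to 1000000 per library), as did 456 names in all. They were carried by 1812 of the 85704 sequences in the table. The family was chosen by its name, with its summed CPM and its difference between the ages already known, so both are given as a description.

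The series holds Ago-RP-Seq of C57BL/6J mice, the strain the labels call BL6. In this assay a Flag-tagged peptide from GW182 pulls down the Ago proteins 1 to 4, and the small RNAs bound to them (R-sRNAs) are sequenced. The mice were males aged 2 months (young) or 18 months (old), with no treatment in the labels, and cortex and hippocampus were combined before lysis. There were 2 libraries at each age. Neither the labels nor the methods say whether a library came from 1 mouse or from several, so the spread between libraries of 1 age may be partly technical. The reads behind the scale numbered 10484940 and 11388999 in young and 10575081 and 9067007 in old mice, and the floor of 3 reads was worth 0.263 to 0.331 CPM. Such intervals and floors cover counting error only, since copies made by PCR are not separate molecules. Neuron miRNAs were abundant, as the labelled tissue requires: miR-124-3p, miR-128-3p, miR-138-5p, miR-132-3p and miR-9-5p summed to 206331 to 240854 CPM per library.

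A miRNA silences messenger RNAs that pair with its seed, the bases near its 5′ end. The miR-200 family is best known for holding cells in an epithelial state by silencing the transcription factors Zeb1 and Zeb2, and in the nervous system it is known from olfactory neurons. Each hairpin precursor is cut into a 5p and a 3p arm, and as a rule 1 of the arms is kept by the Ago protein. Its hairpins lie in 2 clusters on different chromosomes, and both clusters encode members of both seed groups.

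The mature sequences are shown because some of the comparisons below group the members by seed and by arm. They are the RefSeq entries on GRCm38.p6, written 5′ to 3′ with the seed at positions 2 to 8 in capitals. The first pair has the seed AACACUG, the next 3 have AAUACUG, and the last pair are the 5p members.
miR-200a-3p: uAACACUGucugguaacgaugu
miR-141-3p: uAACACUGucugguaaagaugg
miR-200b-3p: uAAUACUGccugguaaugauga
miR-429-3p: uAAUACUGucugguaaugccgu
miR-200c-3p: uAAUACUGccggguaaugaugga
miR-200a-5p: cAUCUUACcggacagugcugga
miR-200b-5p: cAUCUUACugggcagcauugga

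Positions are counted from 1 at the 5′ end, with the first-named miRNA's base first. The seeds differ by 1 base, U4C from miR-200b-3p to miR-200a-3p. miR-200a-3p and miR-141-3p, which come from different chromosomes, were identical at 20 of 22 positions and differed by C17A and U22G. miR-200b-3p and miR-200c-3p, also from different chromosomes, differed by U11G and A22G. Neighbours in a cluster were less alike than these, with 18 of 22 positions shared by miR-200b-3p and miR-200a-3p and 18 of 22 by miR-200c-3p and miR-141-3p.

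On GRCm38 the miR-200b, miR-200a and miR-429 hairpins lie within 1846 bases of the minus strand of chromosome 4, at chr4:156053905-156055750. GENCODE places all 3 in an intron of Ttll10 on the same strand. The miR-200b and miR-200a mature sequences also fall in an intron of the processed transcript Gm13648, and that of miR-429 in an exon of it. The miR-200c and miR-141 hairpins lie within 477 bases of the minus strand of chromosome 6, at chr6:124717914-124718390, in an intron of Gm15884. The mature miR-141-3p also overlaps an exon of the unassigned transcript Gm29008.

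The 7 members together made up 2.93% and 5.03% of the reads in young and 6.13% and 6.71% in old mice. The ages did not overlap, but the 2-month libraries lay further apart from each other than the 18-month libraries did. miR-200a-3p was the most abundant member, with 13521 and 26035 CPM in young and 26175 and 33175 CPM in old mice. It ranked 19 and 6 among all miRNAs in young and 7 and 6 in old mice. The higher 2-month value and the lower 18-month value of miR-200a-3p were nearly the same.

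Its cluster neighbours had lower levels. miR-200b-3p had 5751 and 7965 CPM in young and 12508 and 10995 CPM in old mice. miR-429-3p had 5149 and 8625 CPM in young and 12047 and 11065 CPM in old mice. These values overlapped between the members at each age, so no order of miR-200b-3p and miR-429-3p can be given.

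On chromosome 6, miR-141-3p had 2446 and 4522 CPM in young and 5525 and 7804 CPM in old mice. miR-200c-3p had 2102 and 2737 CPM in young and 4362 and 3506 CPM in old mice. miR-141-3p was above miR-200c-3p in each of the 4 libraries, by a ratio that varied, although the ranges of the pair overlapped at 2 months. All 5 of the 3p members had no overlap between the ages.

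The 5p members were far rarer than the 3p arms of the same hairpins. miR-200b-5p had 185 and 283 CPM in young and 454 and 351 CPM in old mice. miR-200a-5p had 109 and 149 CPM in young and 208 and 174 CPM in old mice. Of the arms outside the list, miR-141-5p reached 37.5 and 59.4 CPM in young and 88.9 and 77.5 CPM in old mice, while miR-200c-5p stayed between 2.58 and 8.98 CPM. miR-429-5p was seen in 1 library only, with 4 reads.

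**Figure D1:**
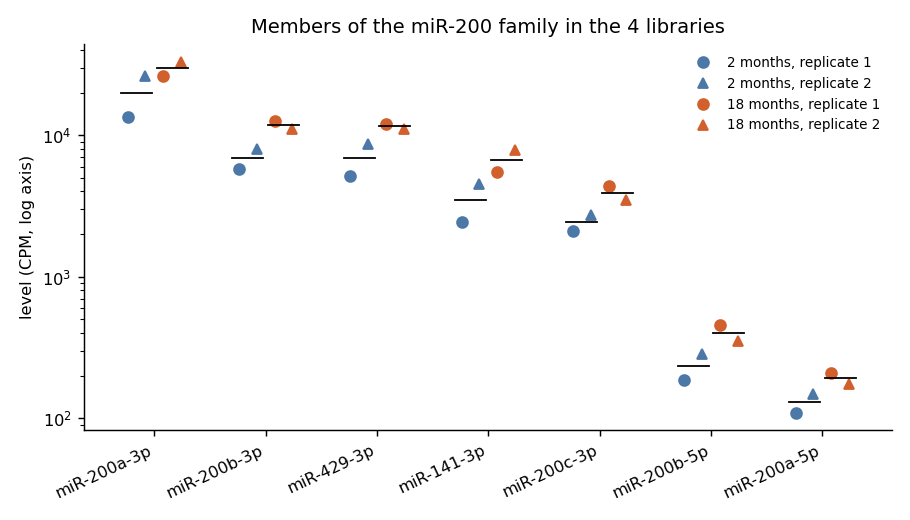
Level of each of the 7 members (CPM, log axis) in the 4 libraries. Blue marks 2 months and orange 18 months, circles mark replicate 1, triangles replicate 2, and black bars the mean of an age. Both orange points lie above both blue points for every member, closest for miR-200a-3p at 26035 and 26175 CPM.

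To compare the ages, limma was fitted to log2(CPM + 1) over all 456 tested miRNAs. At an unadjusted two-sided p under 0.05, 5 of the 7 members were higher at 18 months and none was lower, against 4.17% of all tested miRNAs that were higher by this rule. In both 18-month libraries all 7 members lay above both 2-month libraries, against 12.1% of all tested miRNAs. After Benjamini-Hochberg adjustment over all 456 miRNAs, limma called none of the 7 and 1 other miRNA, or 0.219%. As the family was picked with this difference known, nothing is read from these counts.

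The fitted change was largest for miR-141-3p, with a log2 change of 0.98 ± 0.35 (SE, limma, Benjamini-Hochberg adjusted p = 0.266). For miR-200b-3p the log2 change was 0.79 ± 0.24 (SE, limma, Benjamini-Hochberg adjusted p = 0.249). The log2 change was 0.79 for miR-429-3p, 0.70 for miR-200c-3p and 0.80 for miR-200b-5p (limma, Benjamini-Hochberg adjusted p = 0.266 each). The most abundant member, miR-200a-3p, did not pass the unadjusted threshold, with a log2 change of 0.65 ± 0.35 (SE, limma, Benjamini-Hochberg adjusted p = 0.393). Neither did miR-200a-5p, with 0.57 (limma, Benjamini-Hochberg adjusted p = 0.327). miR-141-5p, the other arm of the miR-141 hairpin, had a log2 change of 0.80 and passed the unadjusted threshold (limma, Benjamini-Hochberg adjusted p = 0.266). The 3p members thus had log2 changes of 0.65 to 0.98, with standard errors of 0.24 to 0.35. All were measured in the same libraries, so these errors are not those of a difference between members. Among pairs of 3p members, the ratio of miR-200a-3p to miR-141-3p differed most between the ages. It was 5.53 and 5.76 in young and 4.74 and 4.25 in old mice, with no test.

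The calls rested on single libraries. Without 2-month replicate 1, where every member was at its lowest, limma called 0 of the 7. Without 2-month replicate 2 it called 7, without 18-month replicate 1 it called 1, and without 18-month replicate 2 it called 3. The scale mattered too. Over the 456 miRNAs the median log2 change was -0.22, with 19 higher and 55 lower at an unadjusted p under 0.05, and after rescaling by the median of ratios it was -0.01, with 39 higher and 25 lower. On that scale the log2 changes of the members ran from 0.78 to 1.19 and all 7 passed an unadjusted p under 0.05.

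**Figure D2:**
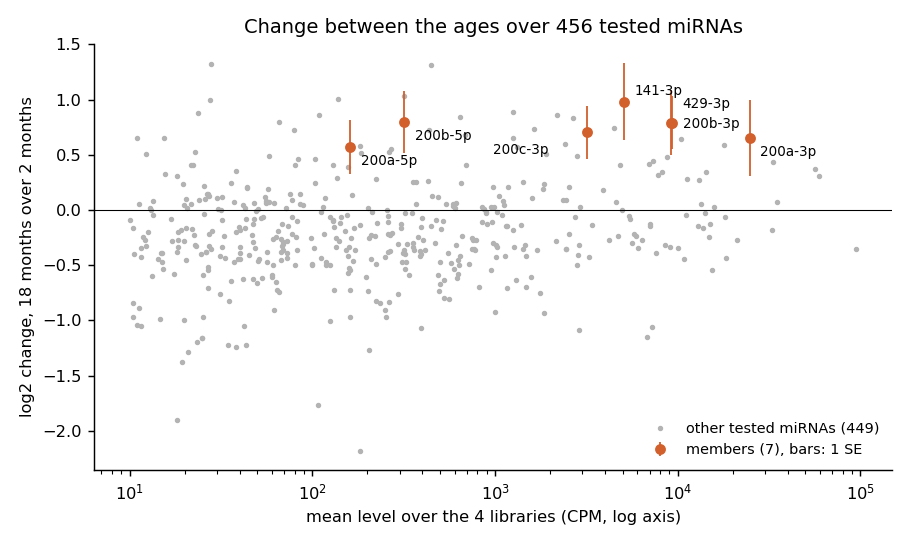
Log2 change from 2 to 18 months (vertical axis, limma on log2(CPM + 1)) against mean level in CPM (horizontal log axis) for 456 miRNAs. Grey points are the 449 others and orange points the 7 members with 1 SE. The members lie between 0.57 and 0.98, while the median of all 456 is -0.22.

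The 2 clusters kept nearly the same proportion. The chromosome 6 hairpins gave 15.7% and 14.6% of the family's 3p reads in young and 16.3% and 17.0% in old mice. The difference between the means was 1.53 percentage points, and the ages did not overlap. A two-sided exact permutation test gave p = 0.333, the smallest value that 2 libraries against 2 allow, so no such share can pass 0.05 here.

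The seed groups differed in another way. The AACACU seed (positions 2 to 7) of miR-200a-3p and miR-141-3p held 53.2% and 59.8% of the 3p reads in young and 50.7% and 60.4% in old mice. The libraries of 1 age differed by more than the means of the ages did, which were 56.5% ± 4.67 and 55.5% ± 6.85 (SD, n = 2 each; two-sided exact permutation p = 1). At 2 months, replicate 2 exceeded replicate 1 by 1.93 times for miR-200a-3p and 1.85 times for miR-141-3p, against 1.38 times for miR-200b-3p, 1.30 times for miR-200c-3p and 1.68 times for miR-429-3p. At 18 months the same ratio was 1.27 for miR-200a-3p and 1.41 for miR-141-3p, against 0.879 for miR-200b-3p, 0.918 for miR-429-3p and 0.804 for miR-200c-3p. At 18 months the seed groups moved in opposite directions between the libraries. At 2 months all 5 moved the same way, and miR-429-3p lay nearer to miR-141-3p than to its seed mates.

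The ratios between members were also compared. For each pair of 3p members the log2 ratio was taken in every library, and its SD over the 4 libraries was the measure of how far the pair moved apart. The 4 pairs with a shared seed had SDs of 0.082 to 0.202, and the 6 pairs with different seeds had SDs of 0.222 to 0.422. The least varying pair was miR-200b-3p and miR-200c-3p, from different clusters, whose ratio was 2.74 and 2.91 in young and 2.87 and 3.14 in old mice. The most varying pair was miR-200c-3p and miR-141-3p, from 1 cluster, whose ratio was 0.859 and 0.605 in young and 0.790 and 0.449 in old mice. Pairs of a 3p and a 5p arm, which differ in seed, had SDs from 0.047 (miR-429-3p and miR-141-5p) to 0.428 (miR-141-3p and miR-200a-5p). A low SD was thus not limited to pairs with a shared seed. Pairs share members, so these SDs are a description with no test.

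The 5p arms of the same hairpins did not follow the AACACU group. miR-200a-5p was 0.834 times as high in 18-month replicate 2 as in replicate 1, while its 3p partner was 1.27 times as high. miR-141-5p was 0.872 times as high and its 3p partner 1.41 times. The ratio of the arms of the miR-200a hairpin, 3p over 5p, was 124 and 175 in young and 126 and 191 in old mice. That of the miR-200b hairpin was 31.0 and 28.2 in young and 27.6 and 31.3 in old mice. Over both hairpins the 5p arm held 1.51% and 1.25% of the reads in young and 1.68% and 1.17% in old mice (two-sided exact permutation p = 1). What separates the seed groups was not tested.

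**Figure D3:**
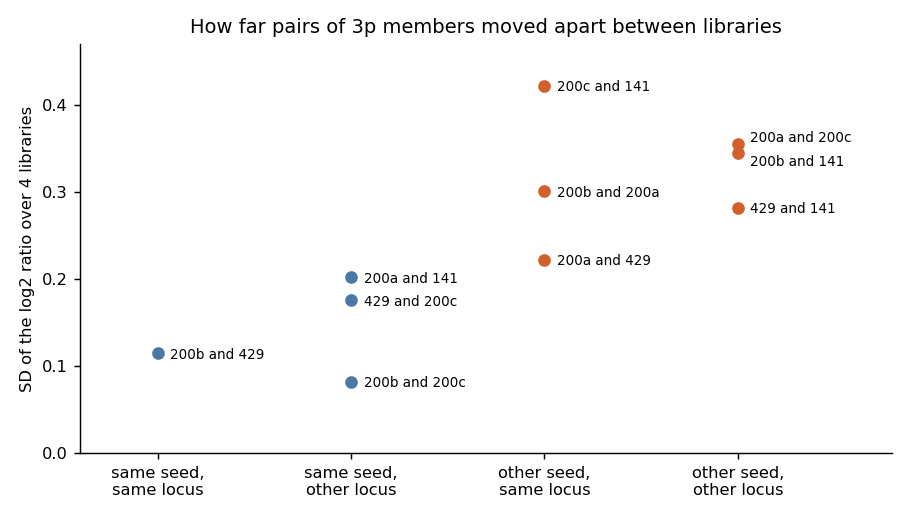
SD over the 4 libraries of the log2 ratio between 2 members (vertical axis), for the 10 pairs of 3p members, grouped by whether seed and cluster are shared. Blue points share a seed and orange points do not. All 4 blue points, 0.082 to 0.202, lie below all 6 orange points, 0.222 to 0.422, whether or not the pair shares a cluster.

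The study scores each 6mer seed by the viability of 3 mouse cell lines after transfection with a duplex that carries it, where a low value marks a toxic seed. The score was 64.6% for AACACU, 82.0% for AAUACU and 87.5% for AUCUUA of the 5p members. Summed over all sequences, AACACU had 15577 and 30163 CPM in young and 31056 and 40604 CPM in old mice. It ranked 9 of 3925 seeds. AAUACU had 12645 and 18841 CPM in young and 28135 and 24972 CPM in old mice, and ranked 14. Sequences with a member's name supplied 98.9% and 99.0% of these sums.

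In the limma fit over 952 seeds, AAUACU was higher at 18 months with a log2 change of 0.78 ± 0.27 (SE, Benjamini-Hochberg adjusted p = 0.285) and passed the unadjusted threshold. AACACU had a log2 change of 0.71 ± 0.35 and did not pass it (SE, limma, Benjamini-Hochberg adjusted p = 0.368). Of all tested seeds, 5.99% were higher at an unadjusted p under 0.05, and 0.315% passed after Benjamini-Hochberg adjustment, among them neither of the family's. Without 2-month replicate 1 or without 18-month replicate 1, 0 of the 2 seeds were called. The mean viability of the members' seeds, weighted by reads, was 72.6% and 71.5% in young and 73.1% and 71.4% in old mice. Over all sequences it was 57.7% and 57.9% in young and 58.1% and 58.4% in old mice.

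A read that starts 1 base later or earlier has another seed. Most reads of the 3p members began at the reference start, and shifted starts held 3.54% and 2.73% of all member reads in young and 3.34% and 2.45% in old mice (two-sided exact permutation p = 0.667). Over the other miRNAs with a mean of at least 100 CPM the share was 7.20% to 7.65%. Only miR-200b-5p had a large second start. Its shifted reads made up 18.6% and 19.1% in young and 19.9% and 23.2% in old mice, whereas those of miR-200a-5p, with the same first 8 bases, made up 1.31% to 2.48%. The most abundant reads of each start of miR-200b-5p are shown as sequenced, with positions 2 to 8 in capitals.
reference start: cATCTTACtgggcagcattgg
start 1 base later: aTCTTACTgggcagcattgga
The first had 71.1 and 103 CPM in young and 164 and 121 CPM in old mice, and the other had 12.3 and 17.4 CPM in young and 31.6 and 26.0 CPM in old mice. The shift changes the 6mer seed from AUCUUA to UCUUAC, with scores of 87.5% and 79.5%.

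The 3′ ends varied more than the starts. For miR-200a-3p the forms of 22 and 23 nucleotides were almost equally abundant, and they differ only by the last base, shown here in capitals.
22 nucleotides: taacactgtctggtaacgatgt
23 nucleotides: taacactgtctggtaacgatgtT
The shorter form had 5359 and 10921 CPM in young and 11847 and 15270 CPM in old mice. The longer form had 5844 and 11095 CPM in young and 9203 and 11912 CPM in old mice. Their ratio, 23 over 22 nucleotides, was 1.09 and 1.02 in young and 0.777 and 0.780 in old mice, so the longer form was in excess at 2 months and the shorter at 18 months. Each pair of replicates differed by less than the ages did.

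The other members differed in this ratio. It was lower at 18 months for miR-141-3p and miR-200b-3p, higher for miR-200a-5p, and overlapped for the rest. The ratio was not taken for miRNAs outside the family, so how common such differences are is not known. It was 0.601 and 0.663 in young and 0.515 and 0.440 in old mice for miR-141-3p. For miR-200b-3p it was 0.310 and 0.247 in young and 0.174 and 0.220 in old mice. For miR-200c-3p, whose reference entry has 23 nucleotides, it was 0.693 and 0.705 in young and 0.856 and 0.698 in old mice, so the ages overlapped. For miR-200a-5p it was 0.124 and 0.077 in young and 0.146 and 0.129 in old mice. Over all members, reads of 23 or more nucleotides made up 34.9% and 35.4% in young and 29.7% and 31.9% in old mice (two-sided exact permutation p = 0.333). This share was lower in both 18-month libraries for 4 of the 7 members, against 33.3% of the 225 miRNAs that could be placed on a hairpin. It was higher in both for miR-429-3p. The other miRNAs together went from 19.5% and 19.2% at 2 months to 17.3% and 18.3% at 18 months.

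**Figure D4:**
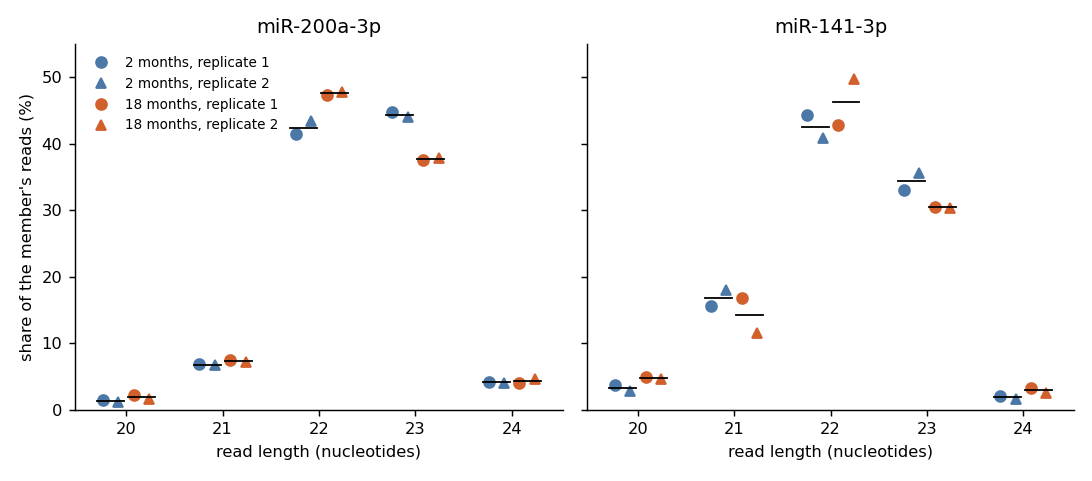
Share of the reads of miR-200a-3p (left) and miR-141-3p (right) at each length from 20 to 24 nucleotides, in percent of the member's reads. Blue is 2 months, orange 18 months, circles replicate 1, triangles replicate 2, black bars the mean of an age. For miR-200a-3p the 22-nucleotide share is 41.5% and 43.4% at 2 months against 47.4% and 47.8% at 18 months, and the 23-nucleotide share goes from 44.8% and 44.0% to 37.5% and 37.9%.

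Many reads ended in bases that the hairpin does not encode. Enzymes in the cell can add A or U to the 3′ end of mature miRNAs. Whether such tailing or the making of the libraries gave these reads was not tested. Reads were counted as A-tailed when up to 3 last bases were all A and did not match the hairpin. An added A that equals the next base of the hairpin cannot be seen in this way. A-tailed reads made up 4.98% and 4.38% of member reads in young and 6.32% and 5.75% in old mice (two-sided exact permutation p = 0.333). This measure was chosen after the values were seen.

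The share was higher in both 18-month libraries for all 5 of the 3p members, which is 5 of the 7 members, against 35.1% of the 225 miRNAs. miR-141-3p went furthest, from 7.72% and 8.67% at 2 months to 12.9% and 10.8% at 18 months. miR-200a-3p had 3.53% and 2.89% in young and 4.55% and 4.02% in old mice. The 5p members did not share this. miR-200b-5p had 7.93% and 8.23% in young and 6.21% and 5.94% in old mice, and the values of miR-200a-5p overlapped. U-tailed reads held 3.25% to 3.42% of member reads, with overlap between the ages. Other unmatched ends of up to 3 bases held 2.11% and 2.41% of member reads in young and 2.81% and 2.81% in old mice. A rise was thus not limited to A tails. The share of these other ends was higher in both 18-month libraries for 63 of the 225 miRNAs. The other miRNAs together had A tails on 4.96% and 4.58% of reads in young and 5.67% and 5.03% in old mice. Their share was thus also higher in both 18-month libraries.

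**Figure D5:**
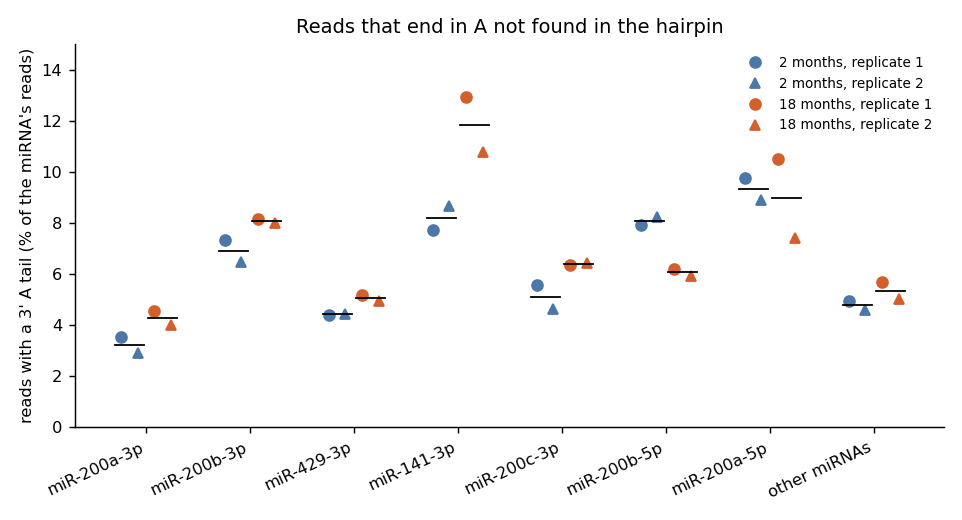
Reads with a 3′ A tail, in percent of the reads of each member and of all other placed miRNAs together. Blue is 2 months, orange 18 months, circles replicate 1, triangles replicate 2, black bars the mean of an age. Both orange points lie above both blue points for the 5 members on the left, most for miR-141-3p, at 12.9% and 10.8% against 7.72% and 8.67%. The same holds for the other miRNAs together, at 5.67% and 5.03% against 4.96% and 4.58%.

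Single sequences showed the largest differences. Of the 1812 member sequences, 438 passed the minimum mean of 1 CPM. By limma at an unadjusted p under 0.05, 170 rose from 2 to 18 months and 0 fell, against 5.87% of the 14287 sequences tested that were higher. Their median log2 change was 0.71, and over all sequences it was -0.01. Without 2-month replicate 1 the count was 82, and without 18-month replicate 1 it was 103. Among the A-tailed member sequences 44 of 67 were higher by the same rule, against 13.0% of the A-tailed sequences of all miRNAs, and their median log2 change was 0.95. Among member sequences with other unmatched ends, neither all A nor all U, it was 66 of 125, with a median of 0.89. The like share over all miRNAs was 9.42%. Among the fully templated member sequences it was 39 of 113, with a median of 0.65, against 6.95% of the templated sequences of all miRNAs. The minimum is a mean over all 4 libraries, so a rare form could pass it through its 18-month level alone. Sequences of 1 member are also not separate results. As the members were higher as a whole and were picked with this known, these counts are a description only.

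After Benjamini-Hochberg adjustment over all 14287 sequences limma called 6, or 0.042%, and 2 of them were A-tailed forms of miR-141-3p. By the tail rule both lack bases at the 3′ end and carry A in their place. They are as long as the main form, so changed bases would read the same, and their origin was not tested. They are shown under the main form of miR-141-3p with the bases classed as added in capitals.
main form: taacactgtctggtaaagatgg
1 base removed, A added: taacactgtctggtaaagatgA
2 bases removed, AA added: taacactgtctggtaaagatAA
The form with AA had 9 and 5 reads at 2 months (0.858 and 0.439 CPM) and 200 and 177 reads at 18 months (18.9 and 19.5 CPM). Its mean was 29.6 times higher at 18 months, and its log2 change on the log2(CPM + 1) scale was 3.63 ± 0.33 (SE, limma, Benjamini-Hochberg adjusted p = 0.0164). Both of its 2-month values lay below the minimum mean of 1 CPM. It was tested only because of its 18-month level, so its p is no independent support. The form with A had 13.5 and 17.7 CPM in young and 97.1 and 101 CPM in old mice, 6.32 times higher, with a log2 change of 2.60 ± 0.31 (SE, limma, Benjamini-Hochberg adjusted p = 0.0380). The main form had 1025 and 1750 CPM in young and 2167 and 3646 CPM in old mice.

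At 2 months the form with AA had 0.858 and 0.439 CPM, from 9 and 5 reads, near the floor of 3 reads. The 18-month replicates lay close together for both forms. When a 2-month library was left out, both kept an adjusted p under 0.05 in limma with Benjamini-Hochberg adjustment. Without an 18-month library the limma Benjamini-Hochberg adjusted p rose as far as 0.242 for the form with AA and 0.326 for the form with A, with log2 changes of 3.44 to 3.81 and 2.41 to 2.78 over the 4 such fits. The other 4 sequences that passed carried no miRNA name.

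Sorted by the last base that matched the hairpin, the A-tailed reads of the 3p members fell into 22 classes with a mean of at least 10 CPM. The ratio of the means, 18 over 2 months, ran from 1.39 to 6.25 with a median of 2.40. These ratios include the difference of the 3p members as a whole, and such classes were not formed for other miRNAs. Fully templated reads had ratios of 1.47 for miR-200a-3p to 1.85 for miR-141-3p. For miR-200a-3p, reads tailed right after the reference end had 95.8 and 105 CPM in young and 378 and 346 CPM in old mice, while those tailed 1 base further had 236 and 406 CPM in young and 371 and 522 CPM in old mice. For miR-200b-3p, reads with the A tail 2 bases short of the reference end had 154 and 181 CPM in young and 454 and 372 CPM in old mice.

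Some miRNAs outside the family had a similar profile over the libraries. The miR-183, miR-96 and miR-182 cluster is known from sensory neurons. miR-96-5p had 1092 and 2123 CPM in young and 2606 and 2932 CPM in old mice, with a log2 change of 0.86 (limma, Benjamini-Hochberg adjusted p = 0.282). miR-182-5p had 2692 and 4033 CPM in young and 6191 and 4902 CPM in old mice (log2 change 0.74, limma, Benjamini-Hochberg adjusted p = 0.266). miR-183-5p had 487 and 554 CPM in young and 1013 and 680 CPM in old mice (log2 change 0.68, limma, Benjamini-Hochberg adjusted p = 0.269). These 3 passed the unadjusted threshold. The 3 summed to 4271 and 6710 CPM in young and 9810 and 8515 CPM in old mice, so their sum was also higher at 18 months. Their part in the family's difference was not tested. Profiles were compared with the mean profile of the 3p members by Euclidean distance of centred log2(CPM + 1) over the 4 libraries. The distance was 0.226 for miR-96-5p and 0.282 for miR-182-5p, while miR-183-5p lay further off, at 0.572. The 5 others nearest to the mean profile were miR-182-3p (0.252), miR-143-5p (0.281), miR-101a-3p (0.387), miR-101b-3p (0.405) and miR-183-3p (0.418).

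The epithelial and endocrine miRNAs on the list gave mixed values. miR-375-3p, known from endocrine cells, had 41.5 and 53.9 CPM in young and 53.7 and 83.5 CPM in old mice (limma, Benjamini-Hochberg adjusted p = 0.437). miR-203-3p of squamous epithelium had 41.2 and 52.2 CPM in young and 44.7 and 52.5 CPM in old mice (limma, Benjamini-Hochberg adjusted p = 0.922). miR-205-5p, also of squamous epithelium, had 10.5 and 12.3 CPM in young and 13.1 and 25.8 CPM in old mice (limma, Benjamini-Hochberg adjusted p = 0.425). miR-7a-5p was lower at 18 months on the CPM scale, with 183 and 192 CPM in young and 116 and 136 CPM in old mice (log2 change -0.57, limma, Benjamini-Hochberg adjusted p = 0.266). It passed the unadjusted threshold on this scale and not after rescaling by the median of ratios. The choroid plexus and ciliated cell list, 5 miRNAs led by miR-204-5p, summed to 2469 and 3006 CPM in young and 2501 and 3233 CPM in old mice. In a tissue lysate a larger number of cells with a miRNA and more of it per cell cannot be told apart.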

How the data were processed

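Small RNAs bound to Ago proteins were sequenced from combined cortex and hippocampus of 2-month and 18-month mice, with 2 libraries per age, grouped by the age in the labels. The authors selected RNA of 19-35 nt on gels, trimmed the reads (Trim Galore per the submitters' processing notes, no version given) and ran their SPOROS pipeline, which removed rare reads, matched the rest to small RNA lists by BLAST and scaled each library to CPM. The deposited CPM of each sequence was used, and 100% of the nonzero values gave whole reads in every library. The authors added a score per 6mer seed, the mean viability of 3 mouse cell lines in percent of control, which can pass 100. The aligner build behind their RNA names is mm9, and no coordinate on it was used.

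CPM was summed by miRNA name, by seed, or kept per sequence, with minimum means of 10, 10 and 1 CPM. Each whole table was fitted by limma on log2(CPM + 1), with the intensity trend and age as the only covariate, two-sided, and p-values were adjusted by Benjamini-Hochberg over each whole table. The methods of the study take an unadjusted p under 0.05 for each row. For shares, the library values went into exact permutation tests, which cannot go below 0.333. The pseudocount understates changes of rare sequences. Reads of the 225 placed miRNAs (mean from 100 CPM up) were set on their RefSeq hairpins by their first 15 bases, with starts from -5 to 10 bases of the reference start, and tails of up to 3 bases were classed by their letters. How often reads are cross-named between similar members was not tested.

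Replicate numbers came from the labels. The labels do not tie same-numbered libraries to a shared animal or day, so no block was used in the report. The alternatives were 2 pseudocounts, other filters, the block, limma without the trend, rescaling by the median of ratios, edgeR and DESeq2 on the recovered reads, and each library left out in turn. The members and lists were chosen with earlier results of these data known. The named miRNAs are the members, their other arms, the listed sensory, endocrine and squamous miRNAs and the 5 with the likest profile. The named sequences are the 3 most abundant of each member and other starts with at least 1% of its reads. The A-tailed forms were added after their values were seen. The fits were tested on simulated counts and the placement on built reads. Tools were R 4.3.3, limma 3.58.1, edgeR 4.0.16, DESeq2 1.42.0, and Python 3.11.15 with scipy 1.17.1, pandas 2.3.3, numpy 2.4.6, matplotlib 3.10.9.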

Additional observations from a re-analysis of the deposited data

Results flagged for a closer look

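Sequences without a miRNA name that the RNA annotation of the table places on a family hairpin lie outside the comparisons by miRNA name and by member sequence. Of their reads, 48.0% carry the AACACU seed and 21.1% the AAUACU seed, and these are part of the seed sums of the report. There were 821 of them, and they summed to 2443.9 CPM over the 4 libraries, 349 and 619 CPM in young and 710 and 766 CPM in old mice. These are sums over all 821 sequences, so they cannot be set against the floor of 3 reads, which holds for a single sequence. The most abundant was an 18-nucleotide stretch from within miR-200a-3p, with 16.7 and 42.2 CPM in young and 37.5 and 28.9 CPM in old mice, so the ages overlapped for it. Their source was not tested.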

How the results depend on the processing

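The log2 changes of the 7 members stayed positive in each of the 91 values from alternatives, between 0.18 and 1.42, and 69 of them stayed on the same side of an unadjusted p of 0.05. Those of the 2 seeds stayed positive in 28 of 28. In limma the 5 calls among the members became 0 after Benjamini-Hochberg adjustment, the 1 call among the seeds 0, and the 170 calls among the member sequences 2. Leaving out 1 library in turn gave 0 to 7 members, 0 to 2 seeds and 82 to 214 member sequences. Both seeds were called by DESeq2 on the recovered reads (2 calls). With the replicate block 2 members were called; the numbers share no known animal or day, same-numbered libraries deviated with a correlation of 0.18 over miRNAs, and the block is no measure of a weaker effect. With the block AACACU passed the unadjusted threshold and AAUACU did not, the opposite of the fit without it (limma, Benjamini-Hochberg adjusted p = 0.338 for each). With the block the limma Benjamini-Hochberg adjusted p of the miR-141-3p forms was 0.0333 (AA added) and 0.0599 (A added), and with edgeR's quasi-likelihood test it was 0.0379 and 0.0732. DESeq2 gave adjusted p = 2.4e-12 and 9.65e-09 for them. edgeR called 6 members and DESeq2 7, and in DESeq2 miR-200b-3p also passed after adjustment (DESeq2 adjusted p = 0.0375). The within-library shares kept their direction under the other sequence filters. When 1 library was left out, the difference between the ages, 18 minus 2 months, changed sign for 3 shares. It ran from -5.84 to 3.84 percentage points for the AACACU seed, -0.69 to 0.20 for shifted starts and -0.21 to 0.30 for the 5p arms. With 2 libraries per age, such a change cannot exceed the spread of that age. Where a lone library stood for an age, its spread was taken from the other age. Depth limits miR-429-5p and miR-200c-5p, which were too rare to test.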
